A study of Mus musculus with 16 samples.

Results

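The comparison described here asks what the Tie-2-Etv2 genotype did to RNA levels in VE-cadherin-positive, CD45-negative cells sorted from the embryo proper at E11.5. Its members were chosen by their sample titles, as 2 Tie-2-Etv2 arrays and 2 control arrays, and make up 4 of the 16 arrays of the series. The other arrays held VE-cadherin-positive, CD45-positive cells of the embryo, from a separate gate, and both fractions from the yolk sac, again with 2 arrays for each genotype. VE-cadherin is an adhesion protein of endothelial cells, and CD45 is a phosphatase carried by most white blood cells, so that the sort takes vessel-lining cells that lack the blood marker. All mice had a mixed background that the labels give as B6/CBA and others, and the cells were sorted by flow cytometry without any later treatment. In the Tie-2-Etv2 embryos an Etv2 transgene was switched on by a Tie-2 Cre transgene, whose promoter is active in endothelial cells and in part of the blood cells. The genotype of the control embryos is given only as control, with their carriage of either transgene alone not given in the sources used here. The titles of the 2 transgenic arrays name only Tie-2, but their genotype and source fields name Tie-2-Etv2. Nothing in the labels tells whether the replicates were separate embryos, separate litters or parts of a pool. The p-values thus measure only how far the samples spread, and that spread may be technical.

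Etv2 is a transcription factor of the ETS family, whose members bind DNA through a shared domain at sites with a GGAA core. It is normally made for a short time in the early embryo, where it is needed for both the endothelial and the blood lineages, and it is then switched off. The gene groups described first belong to the machinery by which blood cells move and adhere: Rac GTPases and the Vav exchange factors that load them, the actin regulators they act on, and the integrins and glycoproteins of platelets.

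Levels are log2 processed intensities minus the 75th percentile of the array, so that a level of 0 is the brightness of the probe at that percentile and a difference of 1 is a doubling. Between 54.5% and 59.9% of probes were well above background on the 4 arrays, and no spot was saturated. The replicates correlated at r = 0.979 for control and r = 0.989 for Tie-2-Etv2 across 24578 genes. The control arrays sat in positions 1 and 2 and the Tie-2-Etv2 arrays in positions 3 and 4 of the same slide column, so position and genotype cannot be told apart. In a bulk sample, more cells of a type and more RNA per cell cannot be told apart either.

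Of the 24578 genes tested with limma, 316 (1.29%) passed the threshold of a Benjamini-Hochberg adjusted p under 0.05. The change ran almost entirely in 1 direction, with 308 genes (1.25%) higher in Tie-2-Etv2 cells and 8 genes (0.0325%) lower. At an unadjusted p under 0.05 the counts were 1146 higher and 570 lower. The median difference of the 308 genes was 2.72 on the log2 scale, or 2.32 with genes below background in a group set at their lower bound, beside a median of −0.03 over all genes. Of the 308 genes, 75 differed by more than 4 on the log2 scale, 153 by 2 to 4 and 80 by less than 2. In all 308 genes both Tie-2-Etv2 arrays lay above both control arrays, and in all 8 genes both lay below. Such gaps were present in 15.5% and 18.1% of all genes. The 316 genes were called on these same arrays, which favours such gaps, so the gaps are no separate support. Of the 308 genes, 174 were well above background on both control arrays, 37 on 1 of them and 97 on neither. Of 3105 probes for long intergenic RNAs, 5 were among the 316. The plot of all genes shows the called genes above a symmetric band.

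**Figure D1:**
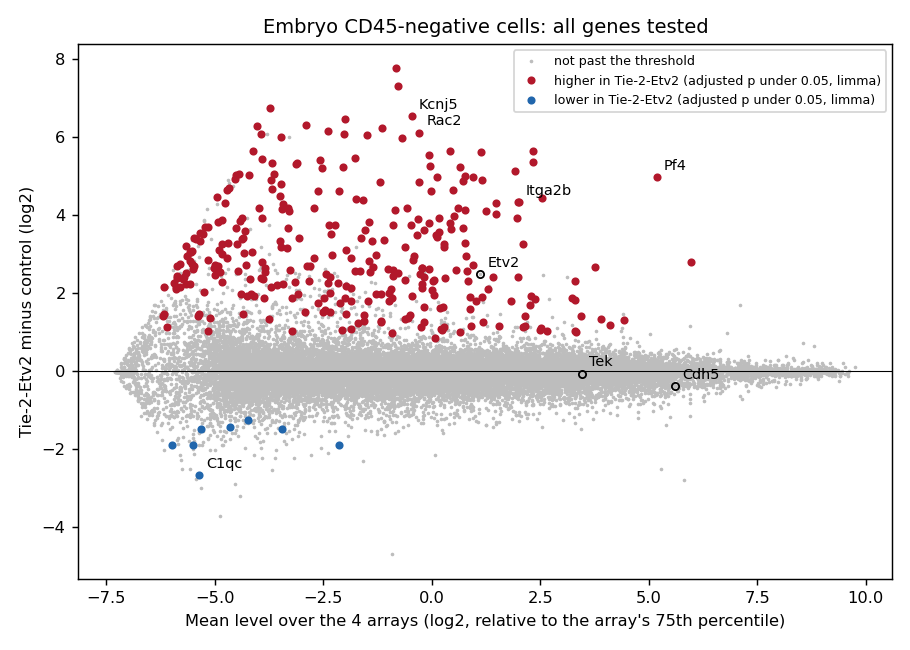
Difference between Tie-2-Etv2 and control (vertical axis, log2) against the mean level over the 4 arrays (horizontal axis, log2 relative to the array's 75th percentile), 1 point for each of 24578 genes. The 308 genes called higher (red) reach differences above 7, while the 8 called lower (blue) go no further than −2.66 (C1qc). Etv2, Tek and Cdh5 are ringed in black as genes that did not pass.

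The targeted gene was read first. Etv2 was probed at chr7:31418776-31418835 of mouse build mm9, the build of all probe positions given here, and no annotation of exons was used. Its level was −0.14 and −0.13 on the control arrays and 2.58 and 2.13 on the Tie-2-Etv2 arrays. Both transgenic arrays were thus above both controls, but the difference of 2.50 ± 0.96 (log2, SE) did not pass in the fit over all 16 arrays (limma, adjusted p = 0.573). It passed with normexp background correction (2.24, adjusted p = 0.000976) and in a fit on the 8 embryo arrays (2.50, adjusted p = 0.0273). It passed in no other setting tried, for example quantile normalization (2.65, limma adjusted p = 0.504) and the 4 arrays alone (2.50, limma adjusted p = 0.0509). A second Etv2 probe at chr7:31419633-31419692 differed by 2.92. Whether either probe reads the transgene, the endogenous gene or both was not tested.

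The gate could be checked in the same way. Cdh5, which encodes VE-cadherin, stood at 5.88 and 5.69 in control and at 5.41 and 5.41 in Tie-2-Etv2 cells (limma difference −0.38 ± 0.30, adjusted p = 0.977). Tek, which encodes the Tie-2 receptor, stood at 3.30 and 3.67 in control and at 3.18 and 3.67 in Tie-2-Etv2 cells (−0.06). Ptprc, the gene of CD45, was not well above background on any of the 4 arrays, with levels between −5.55 and −4.87, whereas the CD45-positive control arrays of the embryo read 3.56 and 2.88. The endothelial markers were therefore present and the CD45 transcript was near background in both genotypes.

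The list with the most called genes was that of Rac, Vav and actin signalling of leukocytes. In it 27 of 52 genes were higher and none was lower, with a list median of 1.43 (1.38 with bounds) beside −0.03 for all genes. Over all genes 1.25% were higher and 0.0325% lower, the shares to set beside each list count below. Members of the lists were chosen with earlier results of these data known, so high counts partly follow from that choice. Rac2, the Rac GTPase of blood cells (probe at chr15:78391452-78391511), stood at −3.32 and −3.38 in control and at 2.89 and 2.65 in Tie-2-Etv2 cells. It rose by 6.12 ± 0.27, or 69.4-fold (limma, adjusted p = 1.12e-06). Both transgenic arrays lay far above both controls and below the 5.90 and 5.73 of the CD45-positive control cells.

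Vav1, the blood-cell exchange factor that loads Rac with GTP (probe at chr17:57467307-57467366), went from −1.92 and −1.17 to 3.44 and 3.42, a rise of 4.97 ± 0.23 (limma, adjusted p = 1.39e-06). Its second probe differed by 5.29. Was, which encodes the Wiskott-Aldrich protein that turns on branched actin assembly, went from −1.87 and −1.80 to 2.95 and 2.66, a rise of 4.64 ± 0.22 (limma, adjusted p = 1.39e-06). Fermt3, the blood-cell kindlin that activates integrins, went from −1.65 and −1.78 to 3.25 and 3.07, a rise of 4.87 ± 0.18 (limma, adjusted p = 7.77e-07). In each of these genes the groups did not overlap. The gaps between replicates were small beside the rises, and were widest in the Vav1 controls (−1.92 and −1.17).

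Other members of the same list rose by similar amounts. Btk, a kinase of B and myeloid cells, rose by 5.27, and Plek, the main protein kinase C substrate of platelets, rose by 5.37 from −0.27 and −0.45 to 5.16 and 4.85. Sla, a Src-like adaptor, rose by 6.48, with only 1 of 2 control arrays above background. For Fyb and Arhgap15, an adaptor of integrin activation and a GTPase-activating protein for Rac, neither control array was above background. Their differences are bounds on the processed intensities, of at least 61.1-fold and at least 12.4-fold. Nckap1l, a blood-cell subunit of the WAVE actin complex and another member, rose by 4.86 ± 0.18 (limma, adjusted p = 7.77e-07), from −3.57 and −3.69 to 1.35 and 1.10. Under normexp 28 genes of the list were higher, with smaller values of 3.36 for Fyb, 3.41 for Sla, 1.77 for Arhgap15 and 3.20 for Nckap1l. The values for Fyb and Arhgap15 lie below their bounds of 5.93 and 3.63 on the log2 scale. Bounds here and elsewhere in the text thus hold only for the processed intensities. A second Arhgap15 probe differed by 0.37, so that the mean of its probes gave 3.00.

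Promoter sequence is shown for a few of the genes that rose and had an entry in the RefSeq promoter table of build GRCm38.p6. Each window is the 250 bases before the gene start. The genes shown were not drawn by a rule, so their matches do not tell how usual the letters are. Capitals mark GGAAGT or its reverse complement ACTTCC (a site letter string of ETS factors), GATAA or TTATC (GATA factors) and TGTGGT or ACCACA (RUNX factors), searched on both strands. Rac2 had no entry. The Vav1 window lies at chr17:57278850-57279099 on the plus strand, the Was window at chrX:8090492-8090741 on the minus strand and the Fermt3 window at chr19:7019470-7019719 on the minus strand.
Vav1: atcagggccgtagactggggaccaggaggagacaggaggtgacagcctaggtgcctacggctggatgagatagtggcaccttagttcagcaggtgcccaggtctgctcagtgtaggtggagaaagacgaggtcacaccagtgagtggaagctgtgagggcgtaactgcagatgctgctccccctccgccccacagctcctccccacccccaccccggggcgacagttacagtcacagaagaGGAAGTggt
Was: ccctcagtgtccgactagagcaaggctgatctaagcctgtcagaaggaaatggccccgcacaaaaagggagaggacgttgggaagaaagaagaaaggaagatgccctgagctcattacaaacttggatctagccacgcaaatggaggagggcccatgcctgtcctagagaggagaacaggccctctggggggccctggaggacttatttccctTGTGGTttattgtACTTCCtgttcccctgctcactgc
Fermt3: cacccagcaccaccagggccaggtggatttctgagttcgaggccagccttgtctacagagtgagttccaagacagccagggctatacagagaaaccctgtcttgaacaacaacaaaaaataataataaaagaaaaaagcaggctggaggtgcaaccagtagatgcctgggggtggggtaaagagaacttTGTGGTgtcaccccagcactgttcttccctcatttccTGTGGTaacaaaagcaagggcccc
The Vav1 window held 1 ETS match, the Was window held 1 ETS and 1 RUNX match and the Fermt3 window held 2 RUNX matches. Over the 279 windows of 213 genes that were higher, 29% held the ETS letters, 24.4% the GATA letters and 18.3% the RUNX letters. Over all 16266 windows of tested genes the shares were 22%, 16.5% and 11.3%, and over all 32851 windows of the table they were 19.7%, 22.6% and 14%. These are letter matches and no test of binding.

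**Figure D2:**
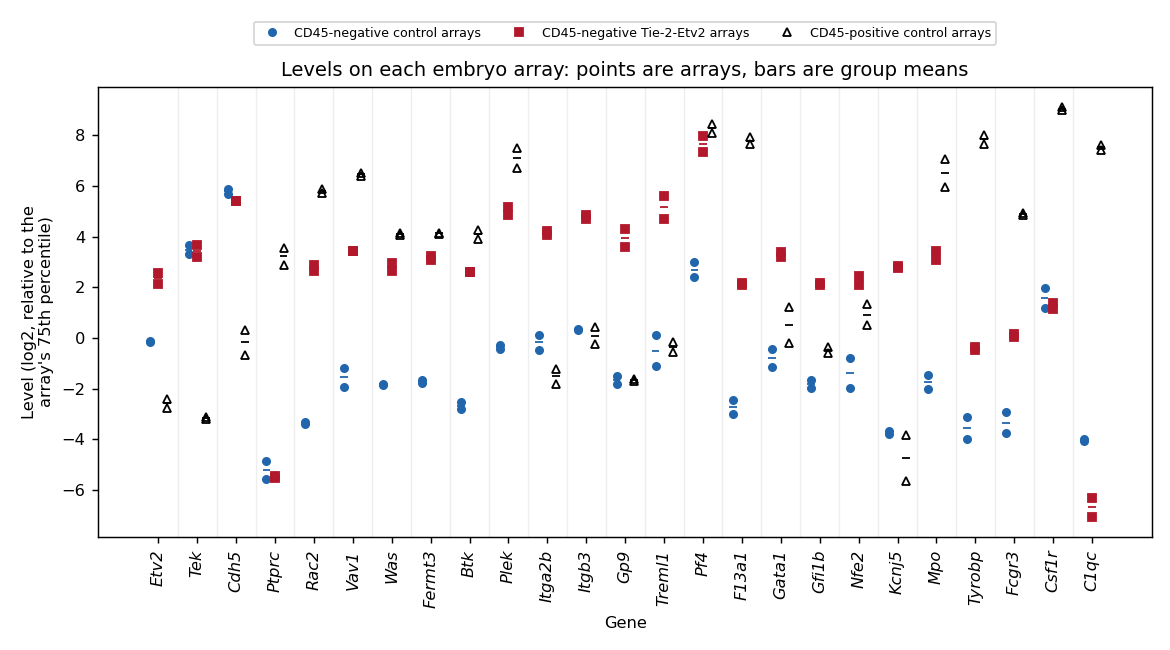
Level of 25 genes (horizontal axis) on each embryo array (vertical axis, log2 relative to the array's 75th percentile), with points for arrays and bars for group means of CD45-negative control (blue circles), CD45-negative Tie-2-Etv2 (red squares) and CD45-positive control cells (open triangles). Rac2 rises from −3.32 and −3.38 to 2.89 and 2.65, still under the CD45-positive cells, whereas Itga2b and Kcnj5 in Tie-2-Etv2 cells lie above them.

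Genes of platelets and of megakaryocytes, the large marrow cells that shed them, formed the second group. Of 25 surface receptors 9 were higher and none lower, with a median of 1.65 (1.25 with bounds). Itga2b and Itgb3 encode the pair of chains of the platelet fibrinogen receptor. Itga2b went from 0.11 and −0.46 to 4.23 and 4.08, a rise of 4.33 ± 0.47 (limma, adjusted p = 0.000683). Itgb3 went from 0.30 and 0.36 to 4.87 and 4.69, a rise of 4.45 ± 0.46 (limma, adjusted p = 0.000501). These are rises of 20.1-fold and 21.8-fold, with no overlap between the genotypes.

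Gp9 and Gp1ba encode subunits of the receptor for von Willebrand factor. Gp9 went from −1.51 and −1.83 to 4.30 and 3.60, a rise of 5.62 ± 0.50 (limma, adjusted p = 0.000136). Gp1ba went from −1.74 and −1.24 to 2.47 and 2.16, a rise of 3.81 ± 0.70 (limma, adjusted p = 0.0245), which no longer passed in the 8 embryo arrays or without any 1 of the 4 arrays. Treml1, a receptor stored in platelet granules, rose by 5.65, and P2rx1, an ATP-gated channel, by 4.13. Ptger3, a prostaglandin E receptor, was at least 33.7-fold higher and F2rl2, a thrombin receptor, at least 22.1-fold, with 2.56 and 2.15 on the log2 scale under normexp. A second Ptger3 probe differed by 2.74 on that scale, below the bound of 5.07 from the first.

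Of 32 platelet granule, coagulation and signalling genes 16 were higher and none lower, with a median of 1.64. Pf4, a chemokine of the platelet granule, went from 3.00 and 2.39 to 7.98 and 7.36, a rise of 4.98 ± 0.32, or 31.5-fold (limma, adjusted p = 1.62e-05). In the CD45-positive control cells it read 8.46 and 8.10, above both transgenic arrays. F13a1, the clot-stabilising factor XIII chain, rose by 4.86 (2.32 on its second probe), Alox5, a lipoxygenase, by 5.97, and Slc35d3, a transporter needed for platelet dense granules, by 5.55. Bin2, a membrane-curving protein of blood cells, rose by 4.97. Rgs18, a regulator of G protein signalling in platelets, rose by 5.24 with 1 of 2 control arrays above background (2.81 under normexp). Angpt1, a ligand of Tie-2, rose by 3.19 ± 0.59 (limma, adjusted p = 0.0243), a call lost without any 1 of the 4 arrays. Not every platelet gene moved: Vwf stood at 5.80 and 6.00 in control and at 6.26 and 6.35 in Tie-2-Etv2 cells (0.41), and Tubb1 differed by 0.98, neither passing. The count of 16 ran from 10 to 12 when 1 of the 4 arrays was left out.

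Among blood transcription regulators 5 of 37 were higher and none lower, and the list median of −0.03 equalled that of all genes. Gata1, the main regulator of red cells and megakaryocytes, went from −1.16 and −0.44 to 3.41 and 3.19, a rise of 4.10 ± 0.45 (limma, adjusted p = 0.000683). Gfi1b, a repressor in the same lineages, went from −1.67 and −1.96 to 2.16 and 2.09, a rise of 3.94 ± 0.40 (limma, adjusted p = 0.000436). Nfe2, which drives platelet release, went from −1.97 and −0.80 to 2.44 and 2.08, a rise of 3.64 ± 0.44 (limma, adjusted p = 0.00136). All 3 were well above background on every array of both groups.

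The other 2 that passed were dim. Spi1, the ETS factor PU.1 of myeloid cells, was below background in both controls and at least 2.49-fold higher, and Ikzf1, the lymphoid regulator Ikaros, differed by 2.57 (1.42 on its second probe), a call lost without control 1 or either Tie-2-Etv2 array. Under normexp they differed by 0.56 and 0.65 and passed no longer. Runx1, needed for the first blood cells to emerge from endothelium, did not pass: it stood at 0.67 and −2.15 in control and at 1.20 and 0.88 in Tie-2-Etv2 cells (1.78 ± 0.67, adjusted p = 0.544 by limma). The gap between its control arrays decides that value, which was 3.19 (adjusted p = 0.00114) without control 1 and 0.38 without control 2. A second Runx1 probe differed by 2.97, and the mean of both probes by 2.38 (limma, adjusted p = 0.234). Tal1, another early blood regulator, differed by 1.19 (limma, adjusted p = 0.32), or by 0.77 without control 1.

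Of 23 ETS factors Spi1 was the 1 that passed, with a list median of −0.17. Fli1 differed by 0.22, Erg by −0.34 (−1.12 on its second probe) and Ets1 by −0.58, all of them endothelial ETS factors that did not pass. Promoter windows of a regulator and of platelet receptors, again not drawn by a rule, are shown with the same marks as above. The Itga2b window lies at chr11:102469884-102470133 on the minus strand, the Gp9 window at chr6:87777820-87778069 on the plus strand and the Gfi1b window at chr2:28621983-28622232 on the minus strand, all in GRCm38.p6.
Itga2b: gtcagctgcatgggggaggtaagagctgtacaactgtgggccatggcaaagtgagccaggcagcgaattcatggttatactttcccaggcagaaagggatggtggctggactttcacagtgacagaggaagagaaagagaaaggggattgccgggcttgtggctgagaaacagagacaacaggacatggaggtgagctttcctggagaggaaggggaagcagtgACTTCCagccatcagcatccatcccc
Gp9: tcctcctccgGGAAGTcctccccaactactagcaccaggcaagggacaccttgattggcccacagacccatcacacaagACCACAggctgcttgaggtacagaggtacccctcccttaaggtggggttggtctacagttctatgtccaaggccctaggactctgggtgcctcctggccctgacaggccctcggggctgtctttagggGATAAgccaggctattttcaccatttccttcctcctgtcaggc
Gfi1b: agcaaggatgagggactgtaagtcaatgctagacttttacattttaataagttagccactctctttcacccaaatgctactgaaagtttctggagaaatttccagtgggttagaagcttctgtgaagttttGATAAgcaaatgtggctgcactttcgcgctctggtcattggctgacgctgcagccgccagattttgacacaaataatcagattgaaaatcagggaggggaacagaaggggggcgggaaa
The Itga2b window held 1 ETS match, the Gp9 window 1 match of each kind and the Gfi1b window 1 GATA match.

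White blood cell surface proteins rose in part. Of 29 genes tested 11 were higher and none lower, with a median of 0.84 (1.34 without control 1). Ptprcap, which binds CD45, rose by 3.68 from −0.91 and −1.34 to 2.76 and 2.35, and Itgb2, the integrin chain shared by leukocytes, rose by 2.43 from −1.87 and −2.36 to 0.44 and 0.18. Cd52, a small surface glycoprotein, rose by 4.63 (2.15 under normexp), and Tyrobp, a signalling adaptor of myeloid and natural killer cells, by 3.11 (1.75 under normexp, and a call lost without control 1). Cd53, a tetraspanin found on most leukocytes, was like Ptprc below background on all 4 arrays, and read 3.12 and 2.58 in the CD45-positive controls.

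Ncf4, a subunit of the phagocyte NADPH oxidase, rose by 2.59, whereas Cybb, its catalytic subunit, was below background on all 4 arrays. Of 17 neutrophil and myeloid granule genes 3 were higher. Mpo, myeloperoxidase, went from −2.02 and −1.45 to 3.08 and 3.45, a rise of 5.00 ± 0.53 (limma, adjusted p = 0.000569). Lyz2, lysozyme, was at least 24.3-fold higher, and Lyz1 rose by 6.06 with 1 of 2 control arrays above background (2.43 and 3.52 under normexp). Elane, neutrophil elastase, differed by −0.35 and did not pass.

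Of 30 macrophage genes 1 was higher and 1 lower, with a median of −0.28. Fcgr3, an antibody receptor, rose by 3.43 (1.99 under normexp). Csf1r, the receptor for the macrophage growth factor, stood at 1.97 and 1.19 in control and at 1.39 and 1.14 in Tie-2-Etv2 cells, and at 9.10 and 8.99 in the CD45-positive controls. Adgre1, the F4/80 antigen, was above background on 1 array of each genotype and differed by −0.07, or by −1.54 on its second probe (−0.81 for the mean of both, limma adjusted p = 0.303). Over the whole macrophage list 15 and 22 genes were above background on the control arrays and 17 and 16 on the Tie-2-Etv2 arrays. Of the receptors for cytokines and chemokines Il10ra rose by 2.91 (1.41 under normexp), and Kit, the stem cell factor receptor, differed by −0.52. Of 32 genes of hemogenic endothelium and stem cells 5 were higher, among them Itga2b, Gfi1b, Angpt1 and Slamf1, with a median of −0.15. Slamf1, a stem cell marker, was at least 4.13-fold higher and differed by 0.89 under normexp, where it did not pass. It also did not pass without control 2 or without Tie-2-Etv2 1.

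The 2 lists of red cell genes held no called gene. None of 6 globin genes and none of 30 red cell membrane, heme and iron genes was called by limma, with medians of 0.88 and 0.44, and at an unadjusted p under 0.05 the counts were 0 and 6, all higher. Hbb-bh1, an embryonic globin, stood at 5.50 and 7.00 in control and at 7.28 and 8.60 in Tie-2-Etv2 cells (1.69 ± 0.83). The median globin level was 5.62 and 6.92 on the control arrays and 6.97 and 8.25 on the Tie-2-Etv2 arrays, with 6.97 just above the 6.92 of control 2. In 4 of the 6 genes both Tie-2-Etv2 arrays lay above both controls, beside 15.5% of all genes. The second array of each group read higher. Alas2, the heme synthesis enzyme of red cells, differed by 1.45. With 1 array left out the Hbb-bh1 difference ran from 0.94 (without control 1) to 2.44 (without control 2) and that of Alas2 from 0.64 (without Tie-2-Etv2 2) to 2.26 (without Tie-2-Etv2 1), while the medians of the 2 lists ran from 0.43 to 1.35 and from 0.14 to 0.71. Of 11 mast cell, basophil and eosinophil genes none passed, with 5 higher at an unadjusted p under 0.05. Their median of 1.13 was 0.0 without Tie-2-Etv2 1. Cpa3, a mast cell protease below background in both controls, was at least 4.39-fold higher with a limma adjusted p of 0.0739. Whether blood cells carried along by the sort took part in any gene's rise was not tested.

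**Figure D3:**
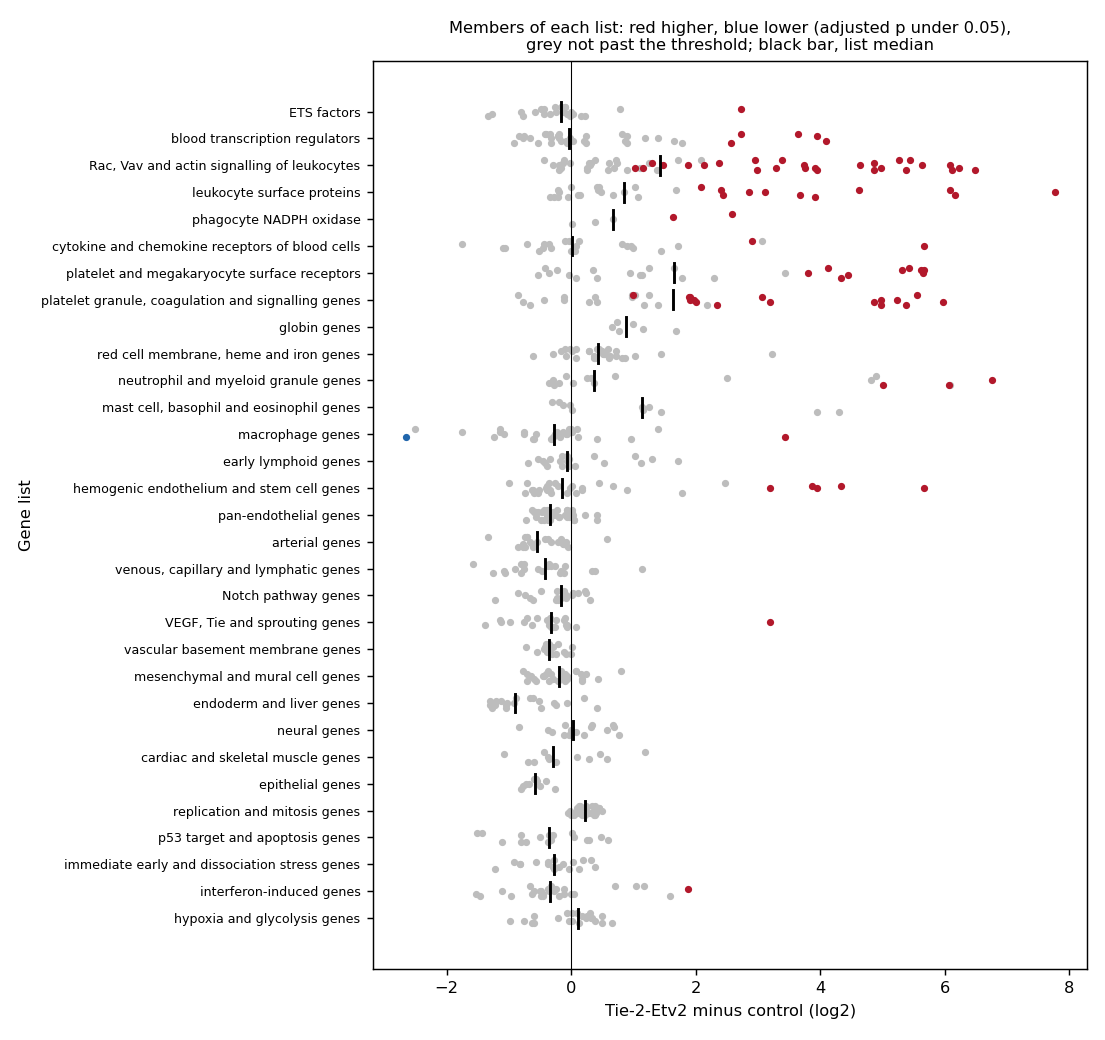
Difference between Tie-2-Etv2 and control (horizontal axis, log2) for the tested members of 31 gene lists (vertical axis), 1 point a gene, red where higher and blue where lower at an adjusted p under 0.05, grey otherwise, with a black bar at the list median. The Rac, Vav and actin list (27 of 52 higher) and both platelet lists (9 of 25 and 16 of 32) reach medians of 1.43 to 1.65. The pan-endothelial, the arterial and the venous, capillary and lymphatic lists hold no called gene, with medians of −0.34, −0.55 and −0.42.

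Genes of the endothelium itself did not pass in either direction. None of 41 pan-endothelial, 23 arterial and 22 venous, capillary and lymphatic genes was called by limma, with medians of −0.34, −0.55 and −0.42. At an unadjusted p under 0.05 the counts of lower genes were 1, 2 and 3, and of higher genes 0, 1 and 0. Both Tie-2-Etv2 arrays lay below both controls in 22, 12 and 13 of the genes, beside 18.1% of all genes. Both lay above in 3, 1 and 1, beside 15.5% of all genes. Most differences were thus small and downward. Pecam1, the junction protein CD31, stood at 3.65 and 3.35 in control and at 2.79 and 3.08 in Tie-2-Etv2 cells (−0.56 ± 0.23, limma adjusted p = 0.629). Kdr, the main VEGF receptor, differed by −0.29, Emcn, a surface mucin, by −0.29, Efnb2, an arterial ephrin, by −0.78 and Nr2f2, a venous regulator, by −0.12. With 1 array left out Kdr ran from −0.57 to −0.02, Emcn from −0.40 to −0.18, Efnb2 from −1.18 to −0.38 and Nr2f2 from −0.21 to −0.03, and the pan-endothelial and arterial medians went up to −0.21 and −0.34 without control 1 and without Tie-2-Etv2 2. Missing the threshold does not show that these levels were equal.

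Several other programmes also held no called gene. They were 21 Notch pathway genes (median −0.17), 19 genes of the vascular basement membrane (−0.36), 30 of mesenchymal and mural cells (−0.19), 20 of endoderm and liver (−0.90), 27 of replication and mitosis (0.22) and 22 of hypoxia and glycolysis (0.11). At an unadjusted p under 0.05 limma gave 1, 1, 0, 0, 0 and 1 lower genes in them, in that order, and 4 higher genes in the replication list and 1 in the hypoxia list. In the same order both Tie-2-Etv2 arrays lay below both controls in 5, 11, 4, 14, 1 and 2 genes. Both lay above in 2, 0, 0, 0, 16 and 6. Over all genes the shares were 18.1% below and 15.5% above. Lists of 20 early lymphoid (−0.06), 16 neural (0.04), 12 muscle (−0.30), 10 epithelial (−0.58), 17 p53 target (−0.36) and 19 immediate early genes (−0.27) held no called gene either, and none had more than 1 gene at an unadjusted p under 0.05. In the liver list Alb, albumin, stood at 2.86 and 1.39 in control and at 1.35 and 0.30 in Tie-2-Etv2 cells and Afp, alpha-fetoprotein, at 5.89 and 4.66 and at 4.52 and 3.93. The liver transcripts were thus highest on control 1, and their part in the differences of other genes was not tested. With 1 array left out the endoderm and liver median ran from −1.46 (without control 2) to −0.44 (without control 1) and the mesenchymal one from −0.69 (without Tie-2-Etv2 1) to 0.33 (without Tie-2-Etv2 2). Of the 32 list medians 11 reached 0 or the other sign under such omissions and 12 more moved over 1.5 times, but not those of the Rac and the 2 platelet lists. Mki67, a marker of cycling cells, differed by 0.37 ± 0.14 (limma, adjusted p = 0.568). Of 22 VEGF, Tie and sprouting genes Angpt1 alone was called, and of 28 interferon-induced genes 1 was higher, on a probe that names several genes.

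Some of the genes that rose most lie outside these lists. Kcnj5, an inward-rectifier potassium channel, went from −3.68 and −3.79 to 2.85 and 2.76, a rise of 6.54 ± 0.46, or 93.1-fold (limma, adjusted p = 3.15e-05). Tuba8, an alpha-tubulin named after its values were seen, went from −4.25 and −4.62 to 2.92 and 2.84, a rise of 7.31 ± 0.53 (limma, adjusted p = 3.67e-05), with 1 of 2 control arrays above background. Tmem40 rose by 5.14, Ccdc88b by 5.25 and Slco4a1, an organic anion transporter, by 4.90. Slco4a1 read −0.24 and −2.36 on the control arrays, and its call was lost without control 2 and without either Tie-2-Etv2 array.

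Of the 8 genes that were lower 6 had a symbol. C1qc, a complement subunit made by macrophages, went from −4.08 and −3.97 to −6.32 and −7.05, below background on both Tie-2-Etv2 arrays, and was at least 2.05-fold lower (limma, adjusted p = 0.0024). P2ry6, a nucleotide receptor, was above background on all 4 arrays and went from −0.70 and −1.68 to −2.80 and −3.36 (−1.90 ± 0.36, limma adjusted p = 0.0299). Itih1, Kcnh1 and Pitpnm3 were below background on both Tie-2-Etv2 arrays and were at least 2.33-fold, 1.41-fold and 1.41-fold lower, and 4930579F01Rik was below background on all 4 arrays. None of the 6 passed under normexp, where C1qc differed by −0.16, P2ry6 by −0.89, Itih1 by −0.08 and Kcnh1 by −0.02, while Pitpnm3 (0.00) and 4930579F01Rik (0.03) no longer lay below 0.

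Background handling also set the size of the rise in dim genes. Of the 97 genes below background on both control arrays 22 passed under normexp, and their median moved from 3.20 to 0.74. Of the 37 above background on 1 control array 23 passed, with a median of 1.12 in place of 3.16. Of the 174 above background on both, 162 passed, with a median of 1.81 in place of 2.46. Rac2, Vav1, Was, Fermt3, Itga2b, Itgb3, Gp9, Pf4, Gata1 and Gfi1b were among those 162.

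The CD45-positive control cells of the embryo give a scale for these levels. Of the 308 genes, 172 read lower on both Tie-2-Etv2 CD45-negative arrays than on both CD45-positive control arrays (36.4% of all genes did), 113 read higher (29.8% of all genes) and 23 overlapped. Of the 27 called genes of the Rac list 26 stayed below, Rac2, Vav1 and Plek among them, and so did Mpo, Tyrobp, Fcgr3 and Lyz2. The 9 called platelet surface receptors all read above, for example Itga2b (4.23 and 4.08 against −1.82 and −1.22), Itgb3 (4.87 and 4.69 against −0.24 and 0.42) and Gp9 (4.30 and 3.60 against −1.71 and −1.61). The 16 called platelet granule, coagulation and signalling genes were split, with 5 above, 9 below and 2 overlapping. Slc35d3 (2.81 and 2.62 against −1.14 and −2.42) was among those above, and F13a1 (2.10 and 2.18 against 7.64 and 7.95) and Bin2 (2.59 and 2.63 against 3.81 and 3.63) were with Pf4 among those below. Gata1, Gfi1b, Nfe2 and Kcnj5 were above them too.

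The same genotype contrast in CD45-negative cells of the yolk sac, which shares no array with the embryo contrast, was wider. There 6405 genes (26.1%) were higher and 3882 (15.8%) lower. Of the 308 genes of the embryo 294 were also higher in the yolk sac, which is 95.5% of the embryo list and 4.59% of the yolk sac list, with a median difference of 4.69 there. Rac2 rose by 9.19, Vav1 by 7.72, Itga2b by 5.38 and Pf4 by 7.5 in the yolk sac. The difference of the 2 effects was tested as a term of the same fit. Positive differences, with the yolk sac effect above that of the embryo, passed for 2344 genes (9.54%) and negative ones for 1573 (6.4%). Among the 308 genes the counts were 172 and 9, with 127 not passing. A negative difference can be a larger fall in the yolk sac, as for Emcn (−3.6 there and −0.29 in the embryo). For Vav1 the difference was 2.75 (limma, adjusted p = 0.00125), whereas for Itga2b it was 1.05 (adjusted p = 0.316).

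The split depended on the scaling of the arrays. With the 75th percentile taken over probes detected on all arrays, 1032 differences passed as positive and 2221 as negative. The median difference over all genes moved from 0.22 to −0.12. With quantile normalization the counts were 1623 and 1748. Among the 308 genes the counts were then 148 and 15, and 161 and 11. The endothelial lists differed too. With the main scaling 28 of 41 pan-endothelial genes were lower in yolk sac Tie-2-Etv2 cells, beside 15.8% of all genes. The difference from the embryo effect passed as negative for 18 of the 41, beside 6.4% of all genes. Over all genes the lower calls in the yolk sac went from 3882 to 5618 with the percentile over detected probes. The embryo and yolk sac arrays were on separate slides, and slide and tissue cannot be told apart in this difference.

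In the CD45-positive cells of the embryo, whose control arrays are separate as well, 564 genes (2.29%) were higher and 175 (0.712%) lower. Of the 308 genes 86 were also higher there, which is 27.9% of this list and 15.2% of the CD45-positive list. The difference of effects passed as negative, with the CD45-positive effect below the CD45-negative effect, for 141 genes (0.574%) and as positive for 140 (0.57%). Among the 308 genes the counts were 120 and 3, with 185 not passing. The 308 genes were chosen for a rise on the same CD45-negative arrays. That choice favours the negative direction in this difference and in that with the yolk sac. The genes with a smaller effect in CD45-positive cells included members of the Rac list: Rac2 changed by 6.12 in CD45-negative and differed by 0.31 in CD45-positive cells, Vav1 by 4.97 and −0.12, and Fermt3 by 4.87 and 0.15. For Fermt3 the difference was −4.73 ± 0.26 (limma, adjusted p = 2.59e-05). Kcnj5 and Itga2b rose in both fractions, by 6.54 and 6.53 and by 4.33 and 4.78, with differences of −0.01 ± 0.65 and 0.46 ± 0.67 that did not pass; Kcnj5 was above background on 1 of 2 CD45-positive control arrays.

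**Figure D4:**
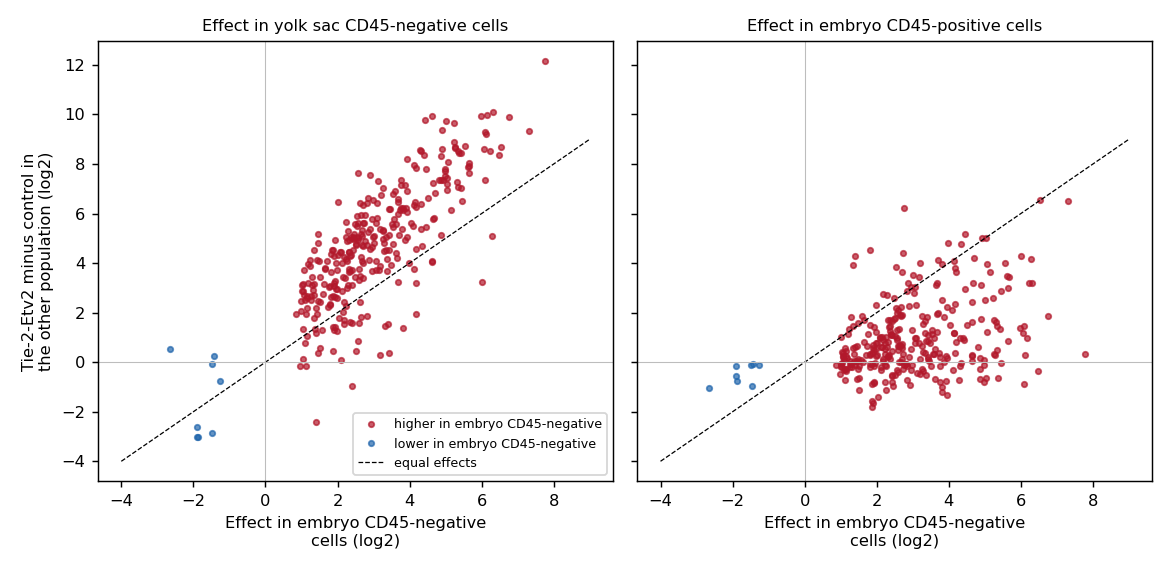
Difference between Tie-2-Etv2 and control in yolk sac CD45-negative cells (left) and in embryo CD45-positive cells (right) on the vertical axis against the difference in embryo CD45-negative cells on the horizontal axis (all log2), for the 308 genes called higher (red) and the 8 called lower (blue) there, with a dashed line of equal effects. Most red points lie above the line on the left (median 4.69) and below it on the right (median 0.63). The red genes were chosen for their rise on the horizontal axis, which favours points below the line.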

How the data were processed

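RNA of sorted cells was labelled with Cy3 and read on Agilent 1-colour arrays of 62976 spots. The scanner files hold spot intensities that the authors extracted with Agilent Feature Extraction 10.7 (named in the submitters' processing notes). Per the file headers, background was subtracted and the signal detrended inside each array, and spots near background got a surrogate value; arrays were not normalized to each other. Whether that bears on dim genes was tried with normexp (offset 50) on the mean and background intensities. The deposited value table holds log2 values of the authors, with the steps behind them not given in the sources used here. By comparison with the scanner files it was the mean of the log2 processed intensities of a probe's spots, shifted per array and centred within a tissue and gate (lowest correlation 1.000000, or 0.999962 for the log2 of the mean), in the same direction. Its column medians for the 4 arrays were 0.175 and −0.0935 (control) and 0.028 and −0.0323 (Tie-2-Etv2), and the reason for the shifts is unknown.

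Control and outlier spots were left out, which removed 87 of 55681 probes, and spots of a probe were averaged as log2. Each array's 75th percentile was subtracted. Kept were 34126 probes that stood well above background on both replicates of some group, and the brightest probe stood for a gene, giving 24578 genes, 16532 with a symbol. Names came through a RefSeq table of GRCm38.p6 (26539 probes by accession, 2596 by symbol, 473 by synonym, 38 by another accession, 25948 unnamed, and 681 with accessions of several genes). Group means were fitted over all 16 arrays with limma 3.58.1 (R 4.3.3), 8 residual and 2.29 prior degrees of freedom, and p-values were adjusted by Benjamini-Hochberg over all genes at 0.05. The 2 differences of effects were contrasts of that fit. The steps were tested on simulated data. The number of arrays limits the precision.

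A gene not well above background in a group is given as a bound against the lowest signal well above background on each array. Such a bound holds for the processed intensities only, and the difference under normexp can be smaller. Named were Etv2, Tek, Cdh5 and Ptprc, the 20 largest rises above background on all 4 arrays, the 10 largest bounds, every lower gene with a symbol, the 8 largest called and the first 4 members of each of 32 lists, and the 6 largest of each sign in both differences, of which the text shows a part, with no gene from a probe of several genes. Some genes that the rule or a list gives are counted but not reported here by name. Members and lists were chosen with earlier results of these data known. Several probes were present for 43 of the 167 genes that the rule gives, with opposite signs in 3 of them. No gene was named from a genome, and exon annotation was not used here.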

Additional observations from a re-analysis of the deposited data

Results flagged for a closer look

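The effect of the genotype differed between yolk sac and embryo CD45-negative cells in a limma test of the difference itself for 3917 genes. Only the 10 that the rule names for the largest differences, among genes called in the embryo, are given here. Other named genes passed too, Rac2 and Vav1 among them. Mpo and Slco4a1 were above background on all 8 arrays of this comparison. Their effect was larger in the yolk sac by 4.73 and 4.47 on the log2 scale, or by 3.87 and 3.52 under normexp. Cxcl5, Cd52, Pstpip1 and I830077J02Rik were below background on both yolk sac control arrays, and Cd52 also on 1 embryo control array, so that the sizes of their fitted differences of 5.37, 5.32, 5.06 and 4.64 and their order were not measured. Under normexp these were 2.54, 3.11, 2.92 and 2.75, and all 4 passed (limma, adjusted p between 0.000134 and 0.0144). The embryo call of Cxcl5, a neutrophil-attracting chemokine, was lost without any 1 of the 4 arrays. The difference of effects was −2.44 for Slc14a1, the urea transporter of red cells and vessels, with effects of 3.82 (embryo) and 1.38 (yolk sac), and −1.25 under normexp, where it did not pass (limma, adjusted p = 0.0639). It was −1.13 for Tuft1, with effects of 0.97 (embryo) and −0.17 (yolk sac), and −0.88 under normexp. The fitted differences of −1.38 for Pitpnm3 and −1.30 for Slc7a2 did not pass under normexp, with Slc7a2 below background on all 8 arrays and Pitpnm3 on the Tie-2-Etv2 arrays of both tissues.

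The next genes were picked among those called in CD45-negative cells, which for rises favours a smaller effect in CD45-positive cells. Between the CD45-positive and CD45-negative cells of the embryo the effect differed in the same kind of test for 281 genes. Only the 7 that the rule names for the largest differences are given here. Other named genes passed too, Vav1 and Fermt3 among them. The effect was smaller in CD45-positive cells by −5.98 for Plek, −5.81 for Rac2 and −5.79 for Pf4. These 3 were above background on all 8 arrays and gave −5.66, −4.28 and −5.70 under normexp. The fitted values of −6.96 for Fyb, −6.82 for Sla and −5.66 for Susd3 rest on CD45-negative controls that were below background on both arrays for Fyb and Susd3 and on 1 array for Sla, so their sizes were not measured. Under normexp they were −4.25, −3.72 and −2.09, and for the mean of its probes Susd3 gave −4.14. In each of these 6 genes both CD45-positive control arrays read higher than both CD45-negative Tie-2-Etv2 arrays: Plek read 7.51 and 6.73 and Susd3 −0.03 and 0.48. Acpp, an acid phosphatase, had a fitted effect larger by 2.89 in CD45-positive cells (1.45 under normexp). It was below background on all 4 CD45-negative arrays and on both CD45-positive control arrays, so neither effect was measured. Its second probe differed by 0.14 in CD45-negative cells, where the mean of both probes gave 0.77 and did not pass (limma, adjusted p = 0.771).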

How the results depend on the processing

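The count of 316 genes became 166 with the strict filter and 134 in a fit on the 4 arrays alone, and that of 308 higher genes 164 and 134. The 8 lower genes became 14 with quantile normalization, 5 with normexp, 15 with no filter on dim probes, 3 with a trended robust prior, 16 with the replicate block, 2 with the strict filter, 4 in the 8 embryo arrays and 0 in the 4 arrays. Leaving out 1 array gave 230 to 410 genes, 223 to 328 higher and 7 to 82 lower, the 82 without control 2. Of the 77 list genes called, 45 passed in the 4 arrays, and 64 to 77 with 1 array left out. The 3917 yolk sac differences became 2526 with no filter, and their 2344 higher ones 1393 with no filter and 1032 with the percentile over detected probes. With 1 array left out they ranged from 1500 to 3700, from 760 to 2151 higher and from 740 to 1549 lower. The 281 CD45-positive differences became 165 with the strict filter and 166 in the 8 embryo arrays, the 140 higher ones 75 and 74, and the 141 lower ones 90 and 92. With 1 array left out they ranged from 177 to 393, from 67 to 172 and from 99 to 221. The cause of these moves was not tested, except that the strict filter tests fewer genes and the smaller fits hold fewer samples.

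Of 60 called genes named in the text, all 60 passed with the deposited table, the percentile over detected probes and the linear average of spots, 54 to 59 with quantile normalization, the replicate block, no filter, the trended robust prior and the mean of a gene's probes, 49 with normexp, 50 in the 8 embryo arrays, 41 in the 4 arrays and 46 to 49 with 1 array left out. Genes that did not pass changed sign in places. With 1 array left out Tek ranged from −0.30 to 0.18 (0.13 without control 2, 0.18 without Tie-2-Etv2 1), Ptprc from −0.62 to 0.06, Csf1r from −0.70 to 0.07 and Cybb from −0.25 to 0.30, and Adgre1 from −0.33 to 0.18. With normexp Ptprc was 0.13, Cd53 0.24 and Adgre1 0.16. Of the lower genes Pitpnm3 moved to 0.00 and 4930579F01Rik to 0.03 with normexp. The labels do not say what a replicate number stands for, so the numbers were not taken as pairs. The deviations of equal numbers correlated at 0.27 between the 2 groups, at 0.39 between the embryo controls of both fractions and at 0.22 between their Tie-2-Etv2 cells, over only 2 numbers, which does not settle whether they pair samples. With the replicate block 329 genes passed, 298 of them among the 316. Averaging spots on the linear scale was added after seeing the data and called the same 316 genes. The deposited table called them too. Surrogate values of spots near background limit what dim genes show.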
